A study of Mus musculus with 14 samples.

Results

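A set of 10 genes of the acute phase, Saa1, Saa2, Saa3, Saa4, Orm1, Orm2, Orm3, Apcs, Hp and Lcn2, were followed in mouse liver across sex and postnatal age. They were found on the arrays through the RefSeq accession of each probe, and all 10 members were found among the 19751 named genes, with 1 probe and 1 spot each. The liver came from CD1 mice, an outbred stock, that were male (M) or female (F) and 3, 4 or 8 wk old, with no treatment and no engineered allele named in the labels, and the groups are called M3, M4, M8, F3, F4 and F8. A pool held the liver RNA of 5 mice in M3 and F3 and of 6 mice in the other groups, so that the spread between single mice was not measured. Pools are read as shared by all arrays with the same group and replicate number, 2 pools per group, which the labels do not state. The basis of this reading is that the gap between replicates computed along either side of a loop of 4 comparisons correlated with r = 0.882 for 3 wk and 0.878 for 4 wk, across 21650 probes, which are not independent replicates. Pools competed in pairs on 14 2-colour Agilent arrays, 2 for each of 7 comparisons. Of these, 3 set males over females of 1 age (M3/F3, M4/F4 and M8/F8) and 4 set 8 wk over a younger age of 1 sex (M8/M3 and M8/M4 in males, F8/F3 and F8/F4 in females), and the dyes were exchanged between the 2 arrays of a comparison.

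Acute phase proteins are plasma proteins, made mainly by hepatocytes, whose synthesis changes when cytokines such as interleukin-6 and interleukin-1 reach the liver after infection or injury. The serum amyloid A proteins encoded by Saa1 and Saa2 travel on high density lipoprotein, and their transcripts are known for very large rises in inflamed mouse liver. C/EBP, STAT3 and NF-kB are the transcription factors best known for acting on these genes. The orosomucoids (alpha-1-acid glycoproteins) bind drugs and steroids in plasma, Apcs encodes serum amyloid P component, the main acute phase pentraxin of the mouse, haptoglobin (Hp) binds free haemoglobin, and lipocalin 2 (Lcn2) binds bacterial siderophores.

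Between 55.2% and 77.2% of the non-control spots of an array were well above background in a channel, and no spot was saturated. All 10 members were well above background in all 28 channels. A list of 10 hepatocyte markers was well above background too, with a summed intensity of 892800 to 1046000 in the 12 pools. The X-inactivation transcript Xist was lower and 4 Y-linked genes were higher in the channel labelled male on all 6 arrays that compared the sexes. For arrays, their number limits the precision, and there were 2 per comparison.

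The upstream sequences of the family members are shown first, because Saa1 and Saa2 moved nearly alike across the arrays while Orm3 departed from Orm2. In RefSeq's gene order the orosomucoid genes lie on chromosome 4 (Orm1, Gm11212, Orm3, Orm2) and the serum amyloid A genes on chromosome 7 (Saa3, Gm31882, Saa4, Saa-ps, Saa1, Saa2). The 250 bases before 1 annotated start of each gene were held for 8 of the 10 members, from RefSeq on GRCm38.p6. A gene can have other starts, and 201 bases of the Saa1 stretch, 89 of the Orm3 stretch and all 250 of the Saa3 stretch lie within the gene's annotated span. The capitals mark the C/EBP core TTGCNCAA, or TTGNGCAA when read on the opposite strand. The Saa1 stretch lies at chr7:46742981-46743230 on the minus strand and the Saa2 stretch at chr7:46751583-46751832 on the plus strand.
Saa1: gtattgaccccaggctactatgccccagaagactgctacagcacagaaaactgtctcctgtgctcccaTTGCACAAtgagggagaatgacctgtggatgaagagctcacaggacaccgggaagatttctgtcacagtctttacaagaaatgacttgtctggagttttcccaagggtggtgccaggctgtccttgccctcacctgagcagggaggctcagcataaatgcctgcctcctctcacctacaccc
Saa2: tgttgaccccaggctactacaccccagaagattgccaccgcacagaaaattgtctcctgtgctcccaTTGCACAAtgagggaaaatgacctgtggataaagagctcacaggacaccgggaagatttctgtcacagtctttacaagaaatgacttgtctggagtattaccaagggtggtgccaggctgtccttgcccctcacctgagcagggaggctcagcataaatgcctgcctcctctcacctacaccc

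The Saa1 and Saa2 stretches were identical at 238 aligned bases, with 11 mismatches and 2 gapped positions (94.8% identity), and both held the core in the same letters. The Orm2 stretch lies at chr4:63362199-63362448 and the Orm3 stretch at chr4:63355908-63356157, both on the plus strand.
Orm2: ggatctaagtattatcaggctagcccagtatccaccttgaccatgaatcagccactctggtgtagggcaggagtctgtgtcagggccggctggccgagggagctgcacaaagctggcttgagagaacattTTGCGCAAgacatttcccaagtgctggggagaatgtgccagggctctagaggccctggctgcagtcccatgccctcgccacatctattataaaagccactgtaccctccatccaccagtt
Orm3: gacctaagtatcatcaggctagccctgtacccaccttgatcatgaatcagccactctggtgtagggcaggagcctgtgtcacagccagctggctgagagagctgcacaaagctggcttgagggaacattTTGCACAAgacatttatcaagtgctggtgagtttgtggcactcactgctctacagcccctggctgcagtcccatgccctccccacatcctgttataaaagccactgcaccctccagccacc

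The orosomucoid stretches were 85.5% identical, and the core differed between them by 1 letter in the middle. The core was found in 6 of the 8 promoters searched (Saa1, Saa2, Saa4, Orm2, Orm3 and Lcn2) and in 2.61% of all 32851 promoters of the same length. Its letters were chosen after the Saa and Orm promoters had been read, so these counts are a description. The STAT palindrome TTCNNNGAA (7.02% of all promoters) and the type II interleukin-6 element CTGGGAA (9.10%) were each found in 1 of the 8, the Apcs promoter, with both strands searched. Probe sequences were held for 2 members, Orm3 and Apcs, the members with sex differences described next, and they show which bases were measured.
Orm3 probe: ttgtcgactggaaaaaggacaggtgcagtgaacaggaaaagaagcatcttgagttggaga
Apcs probe: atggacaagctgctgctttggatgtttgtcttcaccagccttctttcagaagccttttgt

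A gene was called where limma gave a Benjamini-Hochberg adjusted p below 0.05, the change was more than 1.5-fold (a ratio over 1.5 or under 0.667), and both arrays showed 1 group or the other well above background. Log2 ratios are male over female or 8 wk over the younger age. Values for an array are given as replicate 1 and replicate 2, and levels are processed intensities after scaling between arrays. Levels were not corrected with the dye term named below. Where pools are said to overlap or not, the share of all genes that separate alike was not computed. The fitted value is given with its standard error (SE), from a model of all 14 arrays with 1 dye term.

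Orm3 was the member with the most calls, in 5 of the 7 comparisons, and it was higher in female liver at every age. Its male over female log2 ratio was -1.04 and -0.83 on the M3/F3 arrays, -1.57 and -1.20 on the M4/F4 arrays, and -2.18 and -2.02 on the M8/F8 arrays. The 6 arrays thus had the same sign, and the ranges of the ages did not overlap. The fitted ratios were -0.93 ± 0.20 (SE, n = 2 arrays, adjusted p = 0.0218), -1.39 ± 0.20 (adjusted p = 0.00482) and -2.10 ± 0.20 (adjusted p = 0.00102). On the linear scale Orm3 was 1.91-fold higher in females at 3 wk, 2.62-fold at 4 wk and 4.28-fold at 8 wk.

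The same gene rose with age in females. The F8/F3 arrays gave 1.60 and 1.32, and the F8/F4 arrays 0.71 and 1.45. The fitted rises were 1.46 ± 0.20 from 3 wk (2.75-fold, adjusted p = 0.00396) and 1.08 ± 0.20 from 4 wk (2.12-fold, adjusted p = 0.0126). In males the M8/M3 arrays gave 0.37 and 0.31 and the M8/M4 arrays -0.09 and 0.37, for fitted values of 0.34 ± 0.20 (95% interval -0.12 to 0.81) and 0.14 ± 0.20 (-0.32 to 0.61), neither of which passed the test.

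The levels of Orm3 separated the sexes in all pools. Its intensity was 136 and 238 in the M3 pools, 188 and 198 in the M4 pools, and 155 and 237 in the M8 pools. It was 389 and 532 in the F3 pools, 703 and 484 in the F4 pools, and 1090 and 1190 in the F8 pools. Every female pool was above every male pool, the male ages overlapped, F3 and F4 overlapped, and F8 was above both. Within a pool the values of different arrays spread by up to 0.56 (SD, log2), in the M3 pool of replicate 1.

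The difference between the sexes in the change with age was tested for each member, and no member passed, where 3.35% of 14904 genes did for the change from 3 wk and 1.31% of 15166 genes for the change from 4 wk. At an unadjusted p below 0.05 in limma, 3 members and 1 member were counted, and with an error-weighted average of the arrays 3 and 3 would be called. For Orm3 the male minus female difference was -1.12 ± 0.28 for 8 over 3 wk (adjusted p = 0.0815) and -0.94 ± 0.28 for 8 over 4 wk (adjusted p = 0.202). The M8/F8 minus M3/F3 arrays, which are read as made from the same pools, gave -1.14 and -1.19 for the first of these, and the M8/F8 minus M4/F4 arrays -0.61 and -0.81 for the second. Without F8/F4 replicate 2 the difference from 4 wk was -0.52 (adjusted p = 0.505), and without replicate 1 it was -1.36 (adjusted p = 0.0911). Orm3 passed in the difference from 3 wk with 6 group means in the model (-1.17, adjusted p = 0.00165), after normexp and loess (adjusted p = 0.0353), with only probes well above background (0.0493), without either F8/F4 array (0.0473) and with the error-weighted average, and in that from 4 wk with 6 group means (-0.81, adjusted p = 0.0171) and the error-weighted average.

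The number of arrays limits the Orm3 calls at the younger ages. Without M3/F3 replicate 1 or replicate 2 the M3/F3 value was -0.80 (adjusted p = 0.167) or -1.07 (adjusted p = 0.0777), without M4/F4 replicate 1 the M4/F4 value was -1.16 (adjusted p = 0.0555), and without F8/F4 replicate 2 the F8/F4 value was 0.66 (adjusted p = 0.106). Without the 3 arrays of pool 2 of M8, which leaves 3 residual degrees of freedom, no Orm3 call was left, at -0.93, -1.39 and -2.16 for the sexes at 3, 4 and 8 wk (adjusted p = 0.134, 0.0717 and 0.0673) and 1.46 and 1.08 in F8/F3 and F8/F4 (0.0662 and 0.106). Without the arrays of pool 2 of F3 the M3/F3 value was -1.10 (adjusted p = 0.114).

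**Figure D1:**
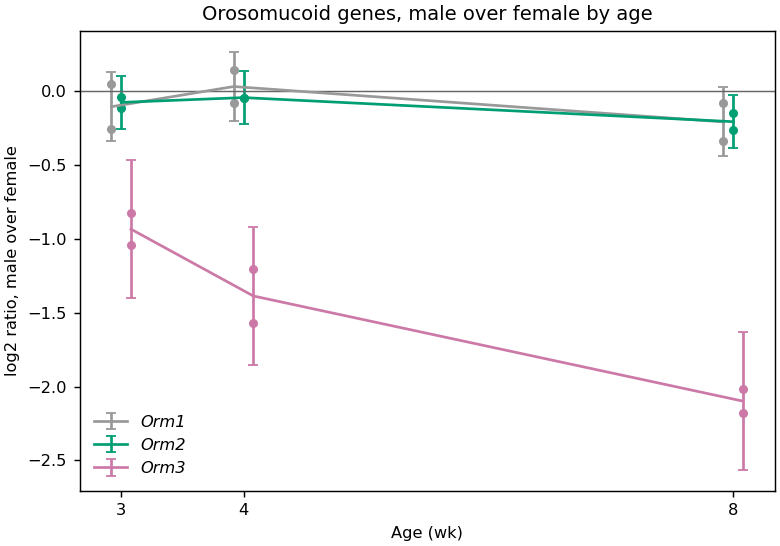
Male over female log2 ratio (vertical axis) of Orm1, Orm2 and Orm3 against age in wk (horizontal axis, to scale, points set slightly apart), where points are the 2 arrays, lines join the fitted values and bars are 95% intervals of the limma fit. Orm3 went from -0.93 at 3 wk to -2.10 at 8 wk while Orm1 and Orm2 stayed between -0.21 and 0.03.

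Orm1 and Orm2 changed together with age and showed no called difference between the sexes. In males, Orm1 was higher at 8 than at 3 wk by 0.98 and 0.66 on the arrays (fitted 0.82 ± 0.10, 1.77-fold, adjusted p = 0.00251), and Orm2 by 0.85 and 0.75 (fitted 0.80 ± 0.08, 1.74-fold, adjusted p = 0.00112). In females, Orm1 was higher by 0.94 and 0.67 (fitted 0.80 ± 0.10, adjusted p = 0.00274), and Orm2 by 0.91 and 0.75 (fitted 0.83 ± 0.08, 1.78-fold, adjusted p = 0.000962). Both genes thus rose in each sex by a similar amount, and the male minus female difference in the rise was 0.02 (95% interval -0.31 to 0.35) for Orm1 and -0.03 (-0.29 to 0.22) for Orm2. These 4 calls held under all 29 alternative settings tried, many of which leave the fitted ratio unchanged by design.

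From 4 to 8 wk neither gene was called. The fitted M8/M4 ratio was 0.00 ± 0.10 for Orm1 and 0.12 ± 0.08 for Orm2, and the F8/F4 ratio was 0.20 ± 0.10 and 0.27 ± 0.08. The Orm1 intensity was 24300 to 30500 in the 4 pools of 3 wk, 38900 to 43800 in the 4 pools of 4 wk, and 42100 to 50200 in the 4 pools of 8 wk. For Orm2 the ranges were 19300 to 21300, 26200 to 30200 and 30900 to 34900. For both genes the pools of 3 wk did not overlap with those of 4 wk, a pair of ages that no array compared directly. Each M3 and M4 pool carried a single dye, and how many of all genes separate alike was not computed. The orosomucoid genes are close copies and the arrays' probes for Orm1 and Orm2 were not compared in sequence here, so binding of one transcript to the other probe was not tested.

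Apcs fell in males and became lower in males than in females. Its M8/M3 arrays gave -1.52 and -0.82, and the fitted change was -1.17 ± 0.17 (2.25-fold lower at 8 wk, adjusted p = 0.00595). Its M8/F8 arrays gave -0.81 and -0.68, for a fitted ratio of -0.74 ± 0.17 (1.67-fold higher in females, adjusted p = 0.0328). The younger ages differed less, with 0.13 and 0.01 on the M3/F3 arrays and -0.38 and -0.26 on the M4/F4 arrays, neither of which was called. The M8/M4 value of -0.58 ± 0.17 (adjusted p = 0.0780), the F8/F3 value of -0.43 ± 0.17 (adjusted p = 0.170) and the F8/F4 value of -0.16 ± 0.17 (adjusted p = 0.711) did not pass.

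The Apcs intensity was 20100 and 20700 in the M3 pools and 20000 and 20300 in the F3 pools, so the sexes overlapped at 3 wk. It was 12900 and 12500 in M4 against 17600 and 15400 in F4, and 6640 and 10900 in M8 against 12600 and 17100 in F8. Males were below females in every pool at 4 and 8 wk, although the M4/F4 ratio was not called (adjusted p = 0.313, limma). The M8 pools were the lowest of all. The male minus female difference in the change from 3 wk was -0.74 ± 0.25 (adjusted p = 0.171). With the slide as a block it passed (-0.74 ± 0.10, adjusted p = 0.0359), as it did with 6 group means in the model (-0.78 ± 0.15, adjusted p = 0.0064). The M8/F8 call was lost without M8/F8 replicate 1 (-0.48, adjusted p = 0.277), without either M3/F3 array (adjusted p = 0.0518 and 0.0516, value -0.74) and without either F8/F3 array (0.0633 and 0.0638). It was also lost without the dye term (-0.74, adjusted p = 0.0823). The M8/M3 call was lost without M8/M3 replicate 1 (-0.95, adjusted p = 0.0697). After normexp and loess Apcs was also called in M8/M4. Without pool 2 of M8 the values were -0.94 in M8/F8 (adjusted p = 0.129) and -1.39 in M8/M3 (adjusted p = 0.0694), and without pool 2 of F3 the M8/F8 call was lost too (-0.74, adjusted p = 0.102).

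Saa4, whose product is the constitutive serum amyloid A protein, rose with age in males and was the steadiest of the Saa genes. The M8/M3 arrays gave 0.83 and 0.95 (fitted 0.89 ± 0.11, 1.86-fold, adjusted p = 0.00308), and the M8/M4 arrays gave 0.67 and 0.98 (fitted 0.83 ± 0.11, 1.77-fold, adjusted p = 0.00414). In females the F8/F3 arrays gave 0.58 and 0.31 (fitted 0.45 ± 0.11, adjusted p = 0.0418) and the F8/F4 arrays 0.60 and 0.48 (fitted 0.54 ± 0.11, adjusted p = 0.0211). The female values passed on p but their ratios, 1.36 and 1.45, were under the 1.5-fold threshold. The male minus female difference was 0.44 ± 0.16 from 3 wk (adjusted p = 0.198) and 0.29 ± 0.16 from 4 wk (adjusted p = 0.505), so the rises of the sexes were not shown to differ. The intensity was 6980 to 9260 in the 8 pools of 3 and 4 wk and 11400 to 13700 in the 4 pools of 8 wk, which did not overlap. Without pool 2 of M8 the M8/M3 value was 0.84 (adjusted p = 0.0996) and the M8/M4 value 0.68 (adjusted p = 0.140).

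By comparison, 1 of the 10 members was higher in females at 3 wk (Orm3, where 0.337% of genes were called in that direction), 1 at 4 wk (Orm3, 0.971% of genes) and 2 at 8 wk (Orm3 and Apcs, 3.74% of genes). From 3 to 8 wk in males 3 members rose (Saa4, Orm1 and Orm2, 7.81% of genes) and 1 fell (Apcs, 10.0% of genes). From 4 to 8 wk in males 1 rose (Saa4, 4.44% of genes) and none fell (6.38% of genes). From 3 to 8 wk in females 3 rose (Orm1, Orm2 and Orm3, 5.08% of genes) and none fell (6.64% of genes), and from 4 to 8 wk 1 rose (Orm3, 2.28% of genes) and none fell (3.72% of genes). At limma's unadjusted p below 0.05, 1, 2 and 0 members would count as lower at 8 wk in these last 3 comparisons. Comparisons that name the same group are read as sharing its RNA pools. The median log2 ratio of the members was -0.23, -0.22 and -0.03 for the sexes at 3, 4 and 8 wk, 0.57 and 0.13 in males (M8/M3, M8/M4), and 0.36 and 0.23 in females (F8/F3, F8/F4), where that of all genes tested lay between 0.00 and 0.02.

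**Figure D2:**
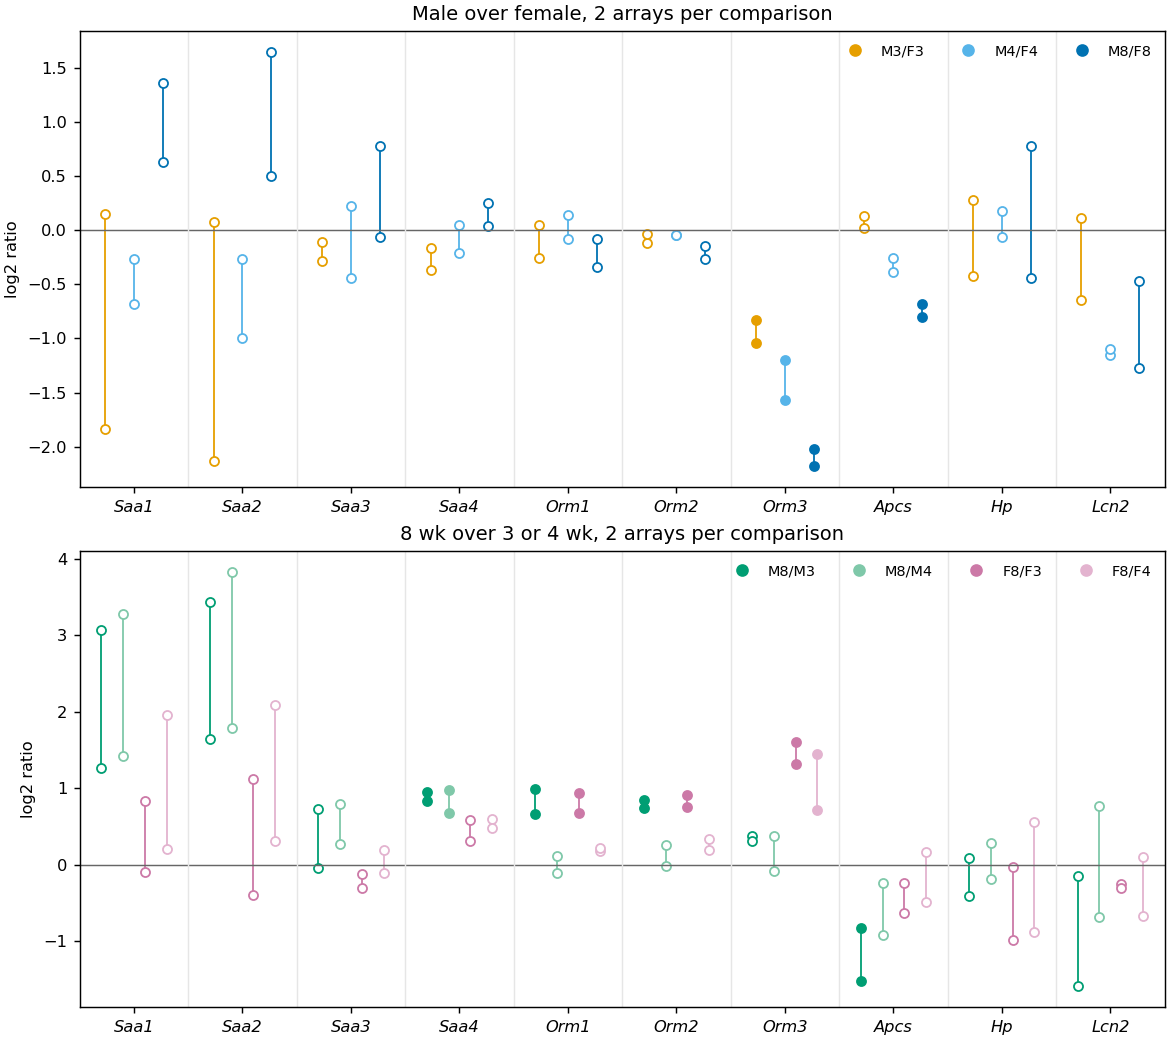
Log2 ratio (vertical axis) of each member (horizontal axis) on each array, male over female in the upper panel and 8 wk over 3 or 4 wk in the lower panel, with a line between the 2 arrays of a comparison and filled points where the gene was called. The 6 Orm3 points of the upper panel lie between -0.83 and -2.18, and the Saa2 points of M3/F3 lie at 0.08 and -2.13.

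Saa1 and Saa2 had the largest fitted changes of the 10 members in the 7 comparisons but also the largest residual SD of the members, and neither was called in any comparison. The M8/M3 arrays gave 1.27 and 3.06 for Saa1 and 1.65 and 3.43 for Saa2. The M8/M4 arrays gave 1.43 and 3.28 for Saa1 and 1.79 and 3.83 for Saa2. All 8 values were positive, while replicate 2 exceeded replicate 1 in each comparison. The 8 values are not independent. Both comparisons are read as using the same 2 M8 pools, and the 2 genes moved nearly alike (cosine 0.9965). Replicate 2 is pool 2 of M8 each time. The fitted M8/M3 values were 2.16 ± 0.64 for Saa1 (4.48-fold, 95% interval 0.65 to 3.68, adjusted p = 0.0718) and 2.54 ± 0.78 for Saa2 (5.82-fold, 0.69 to 4.39, adjusted p = 0.0818).

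The M8/M4 values of these genes, 2.35 ± 0.64 for Saa1 (5.10-fold, adjusted p = 0.0547) and 2.81 ± 0.78 for Saa2 (6.99-fold, adjusted p = 0.0594), also missed the threshold. Both genes were called in M8/M3 and M8/M4 with 6 group means in the model, after normexp and loess, with the error-weighted average, and with dim probes left out of the fit, and in M8/M4 also with the shared pools in the covariance and with all probes of a gene averaged. The error-weighted average also called both genes in M8/F8 and in F8/F4, Saa2 in M3/F3 and M4/F4, and both in the male minus female differences from 3 and 4 wk, where 6 group means called Saa1 from 3 wk. In females Saa1 was at 0.83 and -0.09 on the F8/F3 arrays and at 0.20 and 1.96 on the F8/F4 arrays, the last of these above both male values of replicate 1. The male minus female difference of Saa1 was 1.79 ± 0.90 from 3 wk (adjusted p = 0.367) and 1.27 ± 0.90 from 4 wk (adjusted p = 0.631), so the sexes were not shown to differ. Leaving out 1 array, these differences lay between 0.81 and 2.77 (without F8/F3 replicate 2 and replicate 1) and between 0.63 and 1.91 (without M8/M4 replicate 2 and replicate 1). Without pool 2 of F3 the first was 0.91, and without pool 2 of M8 they were 1.20 and 0.65. The M3/F3 arrays gave 0.15 and -1.83 for Saa1 and 0.08 and -2.13 for Saa2, and the M8/F8 arrays 0.63 and 1.35 for Saa1 and 0.50 and 1.64 for Saa2, none of them called.

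The Saa1 intensity was 15000 and 55300 in the 2 M8 pools, 5050 and 21200 in the F3 pools, 9700 and 20900 in the F8 pools and 8150 and 4930 in the F4 pools. The M3 pools (5710 and 6220) and M4 pools (5200 and 4640) lay close together. Saa2 was split alike within M8 (14200 and 52600) and F3 (4420 and 23300). Pool 2 was 3.69-fold above pool 1 for Saa1 in M8 and 4.19-fold in F3, and for Saa2 3.70-fold and 5.27-fold.

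A high pool read high on each of its arrays. For Saa1 the SD between arrays within a pool was 0.02 and 0.07 (log2) in the M8 pools, and 0.13 and 0.02 in the F3 pools, so the values of 1 pool lay closer together than the pools of a group. The F3 and F4 pools were each measured in both dyes, and the M8 pools in both dyes on 3 arrays, whereas each M3, M4 and F8 pool carried a single dye, so that dye and pool cannot be told apart in those. The residual SD of the fit was 0.96 for Saa1 and 1.18 for Saa2, where the median over 15308 genes was 0.13, and 99.5% and 99.8% of those genes had a smaller one. For Orm2 the residual SD was 0.11, and 43.8% of genes had a smaller one.

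Over the 14 arrays Saa1 and Saa2 had a cosine of 0.9965 between their log2 ratios, the highest of any pair of members, followed by Orm1 and Orm2 with 0.9751. Saa4 had 0.8773 with Saa1 and 0.8819 with Saa2, and Saa3 0.8007 with Saa1. The arrays are read as sharing pools, and the transcripts of Saa1 and Saa2 are close in sequence, so that both probes may read both transcripts, which was not tested. Outside the set, among 13029 genes, the genes with the most similar ratios were Zfp36 for Saa4 (0.9799), Neb for Orm2 (0.9648), Prxl2c for Orm1 (0.9492), Cyp17a1 for Orm3 (0.9484) and Olfr1260 for Apcs (0.9747).

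**Figure D3:**
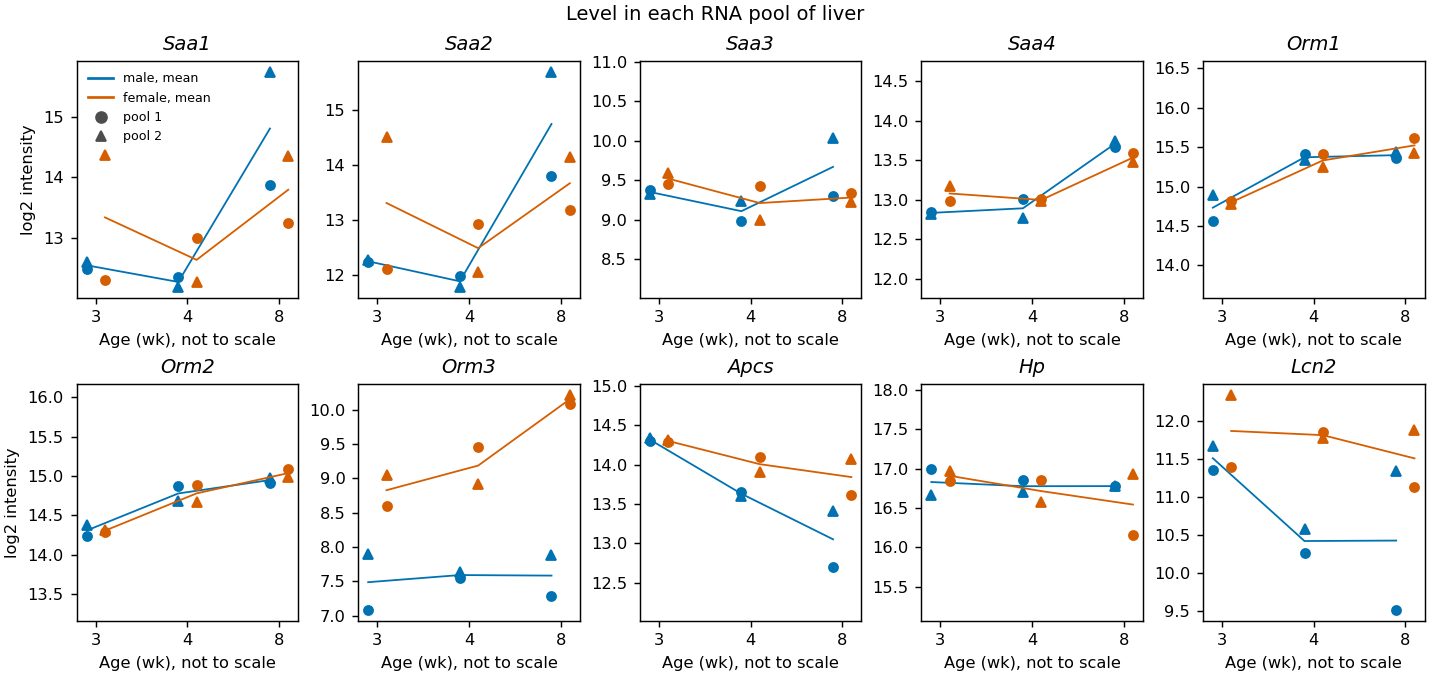
Log2 intensity of each member in the 2 RNA pools of each group (circle, pool 1, triangle, pool 2) against age, with lines through the means of males and females and an axis of its own for each panel. The Orm3 pools of the sexes do not overlap, and the M8 and F3 pools of Saa1 and Saa2 lie far apart.

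Saa3, Hp and Lcn2 had no calls. Saa3, which is made mainly outside the hepatocyte in macrophages and fat, had an intensity of 506 to 1050, with the highest value in pool 2 of M8, and its fitted ratios lay between -0.22 and 0.53. Hp had ratios of opposite sign on the 2 arrays of 6 of the 7 comparisons, such as 0.78 and -0.44 on the M8/F8 arrays, and the exception was F8/F3, with -0.98 and -0.03. In all 7 the higher ratio was on the array with the first-named group in red, so the signs followed the dye swap. Its F8 intensity was 72800 in pool 1, green on all 3 of its arrays, and 125000 in pool 2, red on all 3. This 1.72-fold difference is thus not separable from dye. With the dye term removed, these pools were at -0.35 and -0.11 (log2, relative to the mean of the groups). The intensity of the other Hp pools lay between 97800 and 130000.

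Lcn2 was lower in males on both arrays at 4 wk (-1.15 and -1.10) and at 8 wk (-1.27 and -0.47), with fitted values of -1.13 ± 0.39 (adjusted p = 0.120) and -0.87 ± 0.39 (adjusted p = 0.218), neither of which passed. At 3 wk the arrays gave 0.11 and -0.64. Its intensity was 733 and 2590 in the M8 pools, a 3.54-fold difference, and 2240 and 3780 in the F8 pools. The M4 pools, with 1230 and 1530, lay below the F4 pools, with 3700 and 3490. Lcn2 was called in M4/F4 and M8/F8 with 6 group means in the model, and in M4/F4, M8/F8 and M8/M3 with the error-weighted average.

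Lcn2 is also a protein of neutrophil granules, and neutrophil markers moved with age and sex. Of the 10 markers, 8 of the 9 tested fell in M8/M3 (10.0% of all genes), 8 of 10 fell in F8/F3 (6.64%), and 6 of 8 were higher in females at 3 wk (0.337%). At 4 and 8 wk, when both Lcn2 arrays were below 0, 2 of 7 and 0 of 5 markers were called higher in females (6 and 2 at limma's unadjusted p below 0.05). Of all genes, 0.971% and 3.74% were called so. Their summed intensity was 5339 to 5424 in M3 and 9447 to 11320 in F3, 2069 to 2220 in M4 and 3236 to 3852 in F4, and 1466 to 1639 in M8 and 1855 to 2004 in F8, and no marker was below background in every channel. Fewer cells of a type and less RNA per cell cannot be told apart in whole liver, and the part of neutrophils in the Lcn2 values was not tested.

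Differences between the pools of a group were compared with those of all genes well above background in that group, with a 1.5-fold difference as the limit and without a test. In M8, 6 of the 10 members were past it (Saa1, Saa2, Saa3, Orm3, Apcs and Lcn2), where 3.32% of genes were, and all 6 were higher in pool 2. In F3 it was 3 members (Saa1, Saa2 and Lcn2, 2.41% of genes), in F8 4 members (Saa1, Saa2, Hp and Lcn2, 2.42%) and in F4 2 members (Saa1 and Saa2, 2.87%). In M3 it was 1 member (Orm3, 1.84%) and in M4 none (3.82%). Each M3, M4 and F8 pool carried a single dye, so dye is not separable from pool there, as described for Hp. In F4 all 10 members were higher in pool 1, with a median log2 difference (pool 2 minus pool 1) of -0.24, against 0.005 for all genes. In M8 and F3 9 of the 10 were higher in pool 2 (medians 0.66 and 0.16, against -0.03 and -0.01). In M3, M4 and F8 the members higher in pool 2 numbered 7, 3 and 6.

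**Figure D4:**
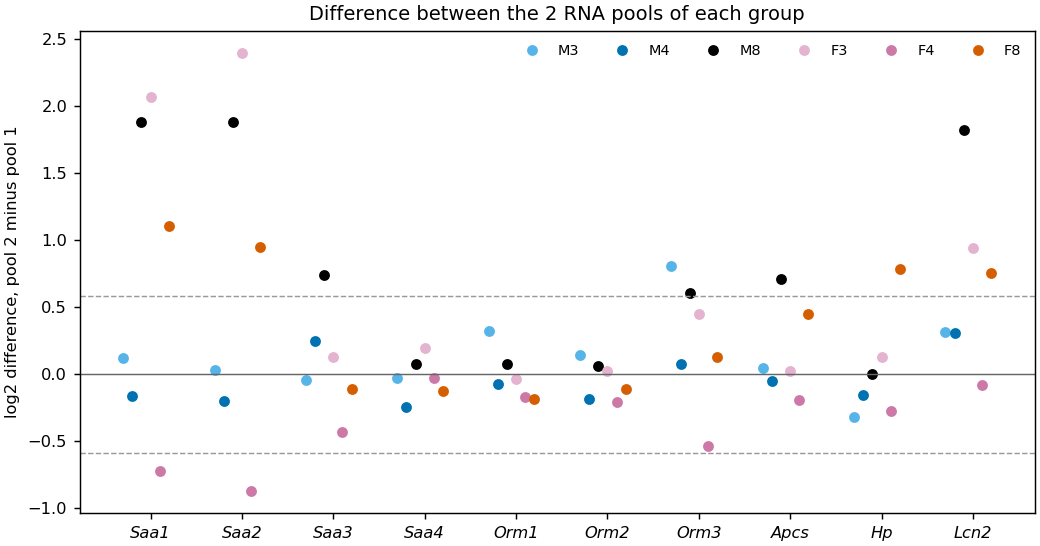
Log2 intensity of pool 2 minus pool 1 (vertical axis) for each member (horizontal axis) and group (colour), with dashed lines at a 1.5-fold difference. M8 and F3 points of Saa1 and Saa2 lie between 1.88 and 2.40, and the Orm1, Orm2 and Saa4 points all lie within the dashed lines.

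Other positive acute phase genes differed between the M8 pools as well. Of 19 such genes well above background there, 14 were higher in pool 2 (median log2 difference 0.22, against -0.03 for all genes). Past 1.5-fold were 6 of them (Cd14, Il1rn, Mt1, Mt2, Steap4 and Serpina3n), where 3.32% of all genes were. These 6 are named after their values were seen, and Il1rn was dim (25.1 and 39.9). Lbp, Hamp, Cfb, Hpx and Itih3 were lower in pool 2, at 0.789 to 0.992 of pool 1. Mt2, a metallothionein, was at 8570 and 85100 in the M8 pools, and Mt1 at 18800 and 90300. Cd14, a receptor for bacterial lipopolysaccharide, was at 188 and 468, and Serpina3n, a protease inhibitor, at 11100 and 20400. In the F8 pools 14 of 19 were higher in pool 2 as well (median 0.125), but Mt1 and Mt2, the genes past 1.5-fold there, were lower in pool 2 (0.639 and 0.531 of pool 1). In the other groups 8 to 11 genes were higher in pool 2, with Hamp past 1.5-fold in M3 and Mt1 in M4. In the F3 pools none of the 19 was past 1.5-fold, although Saa1 and Saa2 differed most there. Summed adipocyte markers were at 3836 and 9204 in the M8 pools and at 5890 and 6676 in the F3 pools, with Lep not well above background in any channel, and their part was not tested.

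Of the other positive acute phase genes, a list of 20, 1 was called higher in females at 4 wk (Fgl1) and 3 were at 8 wk (Fgl1, Hamp and C3), of 19 tested, where 0.971% and 3.74% of all genes were. Fgl1, a secreted fibrinogen-like protein of hepatocytes, had a fitted M8/F8 ratio of -1.99 ± 0.14 (adjusted p = 0.000364) and fell in males from 3 to 8 wk by 1.29 on the log2 scale (adjusted p = 0.00164). In females its F8/F3 value was 0.49 ± 0.14 (adjusted p = 0.0618). Hamp, which encodes the iron hormone hepcidin, rose in both sexes from 3 to 8 wk, by 1.24 ± 0.18 in males (adjusted p = 0.00486) and 1.75 ± 0.18 in females (adjusted p = 0.00131). C3, the central complement component, was lower in males at 8 wk (-0.79 ± 0.05, adjusted p = 0.000365). In M8/M3, 1 gene of the list rose and 2 fell of 20 tested, near the 7.81% and 10.0% of all genes, and A2m, which fell in both sexes, was not well above background on most arrays of 8 wk. The median of the list was -0.25 in M8/F8 and -0.01 in M8/M3.

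A list of 10 genes was drawn up for negative acute phase proteins, which fall during inflammation. Whether each gene on it falls so was not tested here. Ahsg, which encodes the mineral carrier fetuin-A, fell from 3 to 8 wk by 1.25 in males and 0.70 in females on the log2 scale (adjusted p = 0.000193 and 0.00125) and was lower in males at 8 wk (-0.79 ± 0.07, adjusted p = 0.000842). Alb, which encodes albumin, fell in males by 0.71 from 3 wk (adjusted p = 0.00553) and had a value of -0.25 ± 0.10 in F8/F3 (adjusted p = 0.188). Of the 10 genes, 3 fell and 1 rose in M8/M3, where 10.0% and 7.81% of all genes did. The one that rose was Serpina1a (0.83 ± 0.16, adjusted p = 0.0149, limma). In F8/F3 1 fell and none rose (6.64% and 5.08% of all genes, with 2 of the 10 rising at limma's unadjusted p below 0.05). From 3 to 8 wk the list had a median of -0.17 in males (all genes tested, 0.01) and -0.08 in females (all genes tested, 0.02). The corticosteroid carrier Serpina6 was lower in males at 8 wk (-1.07 ± 0.15, adjusted p = 0.00511), the other call of the list in that comparison.

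Cytokines and their signalling genes, a list of 23, had 3 calls between the sexes at 3 wk. Il1b, Il6 and Cebpb, for 2 cytokines and the factor C/EBP-beta, were higher in females at 3 wk, with ratios of -1.28 ± 0.20 (adjusted p = 0.00697), -0.79 ± 0.11 (adjusted p = 0.00501) and -0.60 ± 0.16 (adjusted p = 0.0463), 3 of 20 tested, where 0.337% of all genes were higher in females. In males, Il1b (1.15 ± 0.20, adjusted p = 0.0106), Cebpb (1.12 ± 0.16, adjusted p = 0.00455) and the NF-kB inhibitor Nfkbia (0.61 ± 0.14, adjusted p = 0.0287) rose from 3 to 8 wk, 3 of 20 tested, where 7.81% of all genes rose. Il6 fell in females over the same time (-0.996 ± 0.113, adjusted p = 0.00208), the only call of the list in F8/F3, although at limma's unadjusted p below 0.05 7 genes were higher and 3 lower at 8 wk of 21 tested (median 0.15, against 0.02 for all genes tested). In M8/M3 the same counts were 12 and 1 of 20 (median 0.33, against 0.01). The share of all genes at unadjusted p was not counted, for this list or the others. The receptor gene Il6ra was lower in males at 4 wk (-0.89 ± 0.18, adjusted p = 0.0200), and Tnf, called lower in M8/M4, was not well above background on any M8 array.

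Markers of other cell types moved in some of the same comparisons. The neutrophil markers, 6 of 8 of them higher in females at 3 wk (median -0.73), did so beside Il1b, Il6 and Cebpb. Of the macrophage markers, 5 of 9 were lower in males at 8 wk (median -0.59, 3.74% of all genes), with a summed intensity of 21360 to 26610 in M8 and 33770 to 36250 in F8. In that comparison Orm3, Apcs, Fgl1, Hamp and C3 were called lower in males, and so were the negative acute phase genes Ahsg and Serpina6. At 3 wk 4 of the 9 macrophage markers were lower in males at limma's unadjusted p below 0.05 and 0 were called. Of the erythroid markers, 5 of 9 fell in each of the 4 comparisons with age and 1 rose in M8/M3 and in M8/M4, with a summed intensity of 53340 to 67510 in the pools of 8 wk and 91010 to 101000 in the younger pools. The part of these cells in the values of the members and the cytokine genes was not tested.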

How the data were processed

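Liver RNA pools were compared on 14 Agilent arrays. The scanner output deposited by the authors holds spot and background intensity, processed intensity after background subtraction with linear and LOWESS dye normalization, and the log10 ratio of red over green with its modelled error, per the file headers from Feature Extraction 10.7.1.1. The deposited series table of log10 ratios equalled the scanner ratios. Ratios were converted to log2 and turned by the dye in the labels, 0 to 10 non-uniform spots per array were left out, and RefSeq accessions named 26055 of 39429 probes, the brightest probe standing for a gene.

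Ratios were fitted with limma 3.58.1 in R 4.3.3, with 7 comparison coefficients and 1 dye term (6 residual degrees of freedom), tested on simulated data. The p-values were adjusted over all probes and comparisons, and within each difference between sexes. The study's error-model software was not used. Levels were scaled between arrays (A quantile). Likeness was the cosine over 14 ratios, 3 genes taken per called member. Promoters were aligned with Biopython 1.88. All members are named, with up to 6 list genes by largest called change. Members and lists were chosen with earlier results of these data known. Each comparison lay within 1 of 2 scan days, with its arrays on separate slides. Alternatives changed the dye term, the group model, blocks, covariance, normalization, filters, thresholds and arrays.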

Additional observations from a re-analysis of the deposited data

Results flagged for a closer look

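No member differed between the sexes in its change with age past the test. Among the other genes named, Fgl1 differed, with a male minus female value of -1.77 on the log2 scale for 8 over 3 wk (adjusted p = 0.00717, limma) and -1.28 for 8 over 4 wk (adjusted p = 0.0324), as did Il1b, with 1.44 for 8 over 3 wk (adjusted p = 0.0402). Differences between the pools of a group were not tested.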

How the results depend on the processing

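The 13 calls of a member in a comparison kept their direction under all 29 alternative settings, and 30 of the 377 recomputed values lost the call. Many settings could not change the direction. Each comparison has its own coefficient and balanced dyes. Changes to the dye term, blocks, covariance, filters or arrays of another comparison therefore left its fitted ratio the same. Dropping a filter cannot lose a call, so these counts do not measure how steady the calls are. Leaving out 1 array at a time, the members called numbered 0 to 1 in M3/F3, 0 to 1 in M4/F4, 1 to 2 in M8/F8, 3 to 4 in M8/M3, 1 to 1 in M8/M4, 3 to 4 in F8/F3, 0 to 1 in F8/F4, 0 to 1 in M8/M3 minus F8/F3 and 0 to 0 in M8/M4 minus F8/F4.

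In the order of the sex ratios at 3, 4 and 8 wk, then M8/M3, M8/M4 and F8/F4, limma's unadjusted p below 0.0001 called 0, 0, 1, 2, 0 and 0 members where the reported counts were 1, 1, 2, 4, 1 and 1. The error-weighted average called 2, 3, 5, 7, 3 and 3, and 3 members in each difference between the sexes. With 6 group means, 2 were called in M4/F4, 3 in M8/M4, and 3 and 1 in the differences from 3 and 4 wk. In M8/M4, 3 were called with shared pools in the covariance (pool to array variance ratio 2.50), 3 with all probes averaged, 3 with only probes well above background, and 4 after normexp and loess. In M8/M3 minus F8/F3, normexp and loess and only probes well above background each called 1 member (Orm3), and the slide as a block 1 (Apcs). Without the dye term 1 was called in M8/F8, and without the fold threshold 2 in F8/F4.

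The 3 settings chosen after seeing the data were the fit on probes well above background and the removal of the arrays of 1 pool. Without pool 2 of M8 (3 residual degrees of freedom), 0, 0, 0, 2, 0 and 0 members were called in the order above, and the Orm3 value in M8/F8 was -2.16 (adjusted p = 0.0673). Without pool 2 of F3, 0 were called in M3/F3 and 1 in M8/F8. The cause of these changes was not tested.

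The labels do not say that a replicate number pairs pools of different groups. The gaps between replicates of 2 comparisons correlated at -0.453 to 0.818 over 21 pairs of comparisons, 9 of them above 0.1, and a shared pool gives either sign, so these values do not settle the pairing. With the replicate block, 1 member (Apcs, -0.74, adjusted p = 0.0185) was called in M8/M3 minus F8/F3, and the other counts did not change.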
